A study of Mus musculus with 28 samples.

Results

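Adipocyte and lipid synthesis genes were followed through a mouse experiment in which embryonic fibroblasts (MEFs) received combinations of heart transcription factors. The list was drawn up with earlier results of these data known. It holds 39 genes, chosen by symbol for their textbook roles in fat cells, lipid droplets and the synthesis and breakdown of fat. Of these, 36 had a probe set that the array annotation assigns to 1 gene, among 19938 genes named in this way, and where a gene had several, the one with the highest mean signal was used. Cfd, Adrb3 and Acsl1 had no such probe set and are not analysed here. Of the 36 genes, 35 were tested, among 12211 genes whose signal exceeded the array median on at least 3 of the 28 arrays. The gene left out of the tests was Cidea, a lipid droplet protein of brown fat, which exceeded the array median on 1 array only. Its log2 signals in MEFs without factors were 5.64, 6.07 and 6.95, and all GMT and NGMT arrays run beside them lay between 5.14 and 5.28.

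A combination is named by 1 letter per factor: D is MYOCD, H is Hand2, N is NKX2.5, and G, M and T are GATA4, MEF2C and TBX5. The series holds 4 arrays of DMNT cells, 4 of DMT, 3 of HNGMT, 3 of HGMT, 6 of NGMT, 5 of GMT and 3 of MEFs that received no factor, called 0F. Every culture with factors was plated with lentiviruses for rtTA, the doxycycline-controlled activator of the factor genes, and for a reporter in which a troponin T promoter drives the calcium sensor GCaMP5 and zeocin resistance. Those cultures were moved to a reprogramming medium (AGM without EGF) that contained doxycycline at 2 μg/mL. Zeocin at 300 μg/mL selected for cells resistant through that reporter, beginning 7 days before collection at day 21. The extraction protocol gives 0F cells as MEFs that were not transduced, also collected on day 21, and no label names their medium. The source-name label calls all 28 samples, 0F included, selected cells, and the titles were followed here. Virus, factors, doxycycline, selection and possibly medium therefore changed together between 0F and the other groups, and their parts cannot be told apart. The titles call the arrays of a group biological replicates.

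Fat cells arise from fibroblast-like precursors when the nuclear receptor PPARG and the transcription factor C/EBPα switch each other on and activate genes for fat uptake, storage and hormone secretion. New fatty acids are made from citrate by ATP citrate lyase, acetyl-CoA carboxylase and fatty acid synthase, under the control of SREBP1 and ChREBP, and are joined to glycerol 3-phosphate to give triglyceride. Perilipins and CIDEC coat and enlarge the lipid droplet that stores it, and 3 lipases release the fatty acids again. Cultured MEFs hold precursors that can enter this programme.

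The promoters of 4 genes are shown because they stand for both ends of the results: Adipoq and Retn, secreted products of the fat cell that moved in several comparisons, and Fasn and Acly, enzymes of fatty acid synthesis that moved little among the combinations. Each runs 5′ to 3′ over 300 bases, most of them before the gene's start and the last ones after it, as RefSeq gives it on GRCm38.p6, and capitals mark each CCAAT on either strand. Adipoq lies at chr16:23146286-23146585 on the plus strand, Retn at chr8:3655520-3655819 on the plus strand, Fasn at chr11:120824498-120824797 on the minus strand and Acly at chr11:100527951-100528250 on the minus strand.
Adipoq: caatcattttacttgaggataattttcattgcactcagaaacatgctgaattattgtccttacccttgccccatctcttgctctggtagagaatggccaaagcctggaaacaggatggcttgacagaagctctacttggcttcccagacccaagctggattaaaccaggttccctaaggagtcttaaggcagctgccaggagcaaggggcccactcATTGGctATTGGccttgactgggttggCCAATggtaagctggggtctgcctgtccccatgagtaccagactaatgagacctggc
Retn: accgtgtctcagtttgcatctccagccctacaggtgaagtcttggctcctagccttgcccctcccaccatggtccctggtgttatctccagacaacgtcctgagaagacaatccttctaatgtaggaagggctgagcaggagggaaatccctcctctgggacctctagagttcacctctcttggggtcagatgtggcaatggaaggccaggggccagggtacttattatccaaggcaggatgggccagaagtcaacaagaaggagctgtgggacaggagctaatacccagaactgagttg
Fasn: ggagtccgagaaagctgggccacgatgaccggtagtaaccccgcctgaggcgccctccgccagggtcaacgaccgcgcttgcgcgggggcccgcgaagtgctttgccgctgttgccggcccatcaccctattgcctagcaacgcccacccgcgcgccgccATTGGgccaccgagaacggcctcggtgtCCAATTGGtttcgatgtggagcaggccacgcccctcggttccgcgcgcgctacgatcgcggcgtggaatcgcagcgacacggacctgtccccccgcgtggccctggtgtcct
Acly: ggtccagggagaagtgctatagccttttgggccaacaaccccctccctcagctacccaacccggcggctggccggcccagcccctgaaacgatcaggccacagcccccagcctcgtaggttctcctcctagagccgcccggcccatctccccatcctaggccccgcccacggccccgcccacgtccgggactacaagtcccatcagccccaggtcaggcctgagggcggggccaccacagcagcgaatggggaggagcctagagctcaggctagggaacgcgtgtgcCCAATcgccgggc

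In these windows Adipoq held CCAAT at 3 places, Fasn at 3, of which 2 overlap in CCAATTGG, and Acly at 1, and Retn held none. Of the 35 tested genes, 26 had a promoter in the RefSeq table, and each motif was searched on both strands of the same 300-base window. CCAAT was present in 12 of them (46.2%), against 41.1% of 27025 genes. The C/EBP element TTGCNNAA was present in 4 (15.4%, against 12.2% of all genes), the E-box CACGTG in 4 (15.4%, against 8.09%), and TATAAA in 3 (11.5%, against 15.7%). The sterol regulatory element TCACNCCAC was found in 1, Mlxipl (3.85%, against 1.44%), and the PPAR and RXR direct repeat, AGGTCA in 2 copies 1 base apart, in 0 (against 0.0481%). These matches describe letters in a short window and say nothing of binding.

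All values are log2 signals as the authors deposited them. The arrays fell into 3 sets with different value distributions, which the labels do not name: set 1 with 8 arrays (medians 6.68 to 6.75), set 2 with 15 (6.86 to 6.95) and set 3 with 5 (7.64 to 7.65). All 0F arrays lie in set 1 with GMT replicates 1 and 2 and NGMT replicates 1 to 3. Set 2 holds GMT replicates 3 to 5, NGMT replicates 4 to 6, HGMT, HNGMT and DMT replicates 1 to 3, and set 3 holds DMT replicate 4 and DMNT. Groups were therefore compared inside a set with limma, two-sided, and a gene was called at a Benjamini-Hochberg adjusted p under 0.05 over all 12211 genes. The typical spread between replicates, as the median SD over genes, was 0.132 in HNGMT, 0.0519 to 0.0710 in the other groups of sets 1 and 2, and 0.0321 in DMNT. In set 3, 70.4% of tested genes had exactly equal values on at least 2 arrays, against 25.1% in set 1 and 23.1% in set 2, and 27 of the 35 genes were among them. The spread of set 3 enters the estimate shared by all comparisons. Counts that change when only a set's own arrays are fitted are therefore given with both values, for DMNT against DMT in the closing section. Tnnt2, the troponin T gene whose promoter drives the selection marker, was higher by 5.12 ± 0.09 (SE) in GMT and by 4.94 ± 0.08 in NGMT than in 0F cells. The fibroblast receptors Pdgfra and Pdgfrb lay above the array median on all 3 0F arrays, between 11.01 and 11.21.

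In GMT cells and in NGMT cells of set 1 all 35 genes were lower than in 0F cells. Of all genes tested, 22.3% were called lower in GMT and 23.3% in NGMT. Lep, Pck1, Mlxipl and Thrsp exceeded the array median on 3 arrays only, those of 0F. Aqp7 exceeded it on those and on HGMT replicates 1 and 3. All of these genes entered the tests through the group where they are high, so their falls add no support. The counts and medians of the 35 genes here, and those by role below, include them. With a filter of at least 8 arrays, which leaves them out, 30 genes of the list were called lower in each combination and 0 higher. Every GMT and NGMT array was below every 0F array for all 35, as for 29.7% of all genes in GMT and 27.9% in NGMT. The fall was at least 2-fold for 34 of the 35 genes in GMT, where 5.37% of all genes fell that far, and for 33 in NGMT, where 4.77% did. The median log2 difference of the 35 genes was -2.96 in GMT and -2.85 in NGMT, and that of all genes was 0.05 and 0.04. Both comparisons use the same 3 0F arrays, so they are not independent of each other. In bulk RNA, fewer cells of a type and less RNA per cell cannot be told apart.

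**Figure D1:**
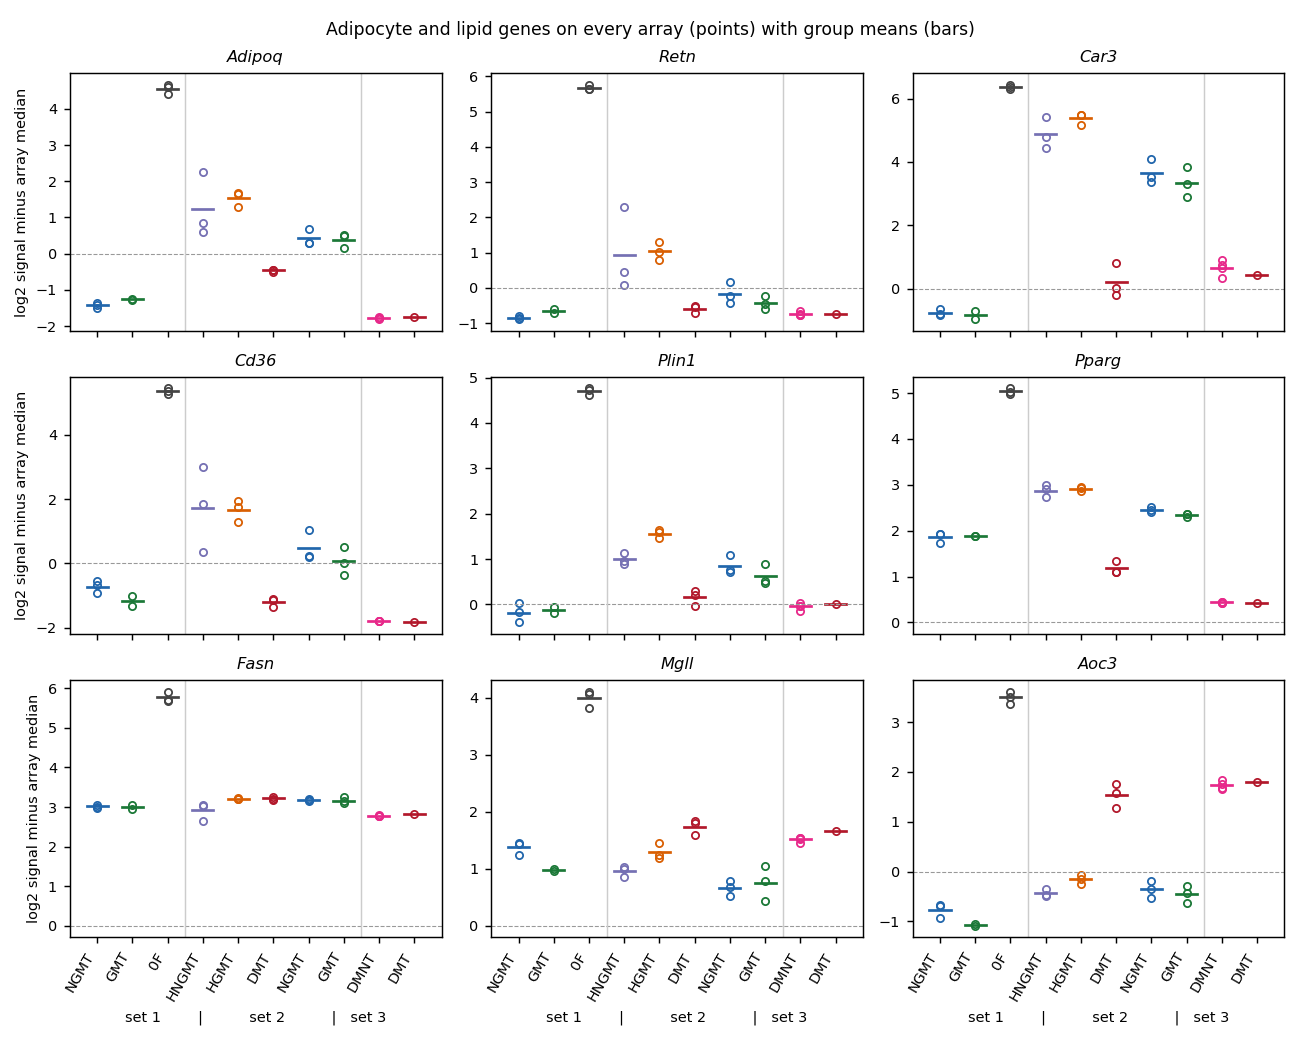
Log2 signal minus the median of its array (y axis) for Adipoq, Retn, Car3, Cd36, Plin1, Pparg, Fasn, Mgll and Aoc3 on each of the 28 arrays, by group (x axis) and set. Open circles are arrays, bars are group means and the dashed line is the array median. In set 1 the 0F arrays lie above all GMT and NGMT arrays in each panel, and in set 2 the HGMT arrays lie above all GMT arrays for Adipoq, Retn, Car3 and Cd36.

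The 10 genes of adipocyte identity, among them those of hormones, uptake proteins and abundant enzymes of the fat cell, fell with a median of -4.67 in GMT and -4.56 in NGMT. Car3, a carbonic anhydrase abundant in fat, had log2 signals of 6.03 and 5.74 in GMT cells and 6.09, 5.89 and 5.88 in NGMT cells, against 13.05, 13.11 and 13.11 in 0F cells. Its difference of -7.21 ± 0.28 (SE) between GMT and 0F in set 1 was the largest fall of the list, a 148-fold lower signal (limma adjusted p = 2.5e-16). Adipoq, which encodes adiponectin, had 5.50 and 5.41 in GMT cells and 5.38, 5.23 and 5.28 in NGMT cells, against 11.17, 11.34 and 11.34 in 0F cells. The 0F arrays thus carried a strong signal of this fat cell hormone, while the GMT and NGMT arrays of set 1 lay below the median probe set. On the GMT and NGMT arrays of set 2, described below, Adipoq lay above that median and Car3 was far higher than in set 1. Retn, which encodes resistin, had 6.02 and 6.08 in GMT cells and 5.84, 5.88 and 5.90 in NGMT cells, against 12.39, 12.37 and 12.44 in 0F cells. Cd36, the fatty acid uptake receptor, had 5.72 and 5.37 in GMT cells and 6.05, 5.81 and 6.13 in NGMT cells, against 12.03, 12.09 and 12.13 in 0F cells. For these genes the replicates of each group lay close together beside the gap between the groups.

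Lep, the leptin gene, had 5.53 and 5.67 in GMT cells and 5.70, 5.61 and 5.86 in NGMT cells, against 9.29, 9.01 and 9.63 in 0F cells. Fabp4, the fatty acid binding protein of fat cells, had 9.46 and 9.14 in GMT cells and 9.48, 9.40 and 9.37 in NGMT cells, against 12.44, 12.51 and 12.49 in 0F cells. Lpl, the lipase that frees fatty acids from blood lipoproteins, had 9.62 and 9.49 in GMT cells and 10.38, 10.13 and 9.65 in NGMT cells, against 12.88, 12.90 and 12.94 in 0F cells. Fabp4 and Lpl kept signals well over the array median on these GMT and NGMT arrays, unlike Adipoq. The differences from 0F were -2.96 in GMT and -3.07 in NGMT for the glucose transporter gene Slc2a4, -4.76 and -4.85 for the glycerol channel gene Aqp7, and -4.57 and -4.27 for the amine oxidase gene Aoc3. Lep and Aqp7 are among the genes that entered the tests through 0F, so their falls add no support. Of the 35 genes, 13 lay below the array median on every GMT array and 12 on every NGMT array of set 1, against 0 on the 0F arrays. The files give no detection call, so a difference that ends at such low signals has no tested floor.

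The lipid droplet genes Plin1, Plin4 and Cidec fell in both combinations, with a median of -4.84 in GMT and -4.89 in NGMT. Plin1, the perilipin that gates access of lipases to the droplet, had 6.68 and 6.50 in GMT cells and 6.76, 6.34 and 6.52 in NGMT cells, against 11.36, 11.50 and 11.42 in 0F cells. Cidec, which drives droplet fusion, had 5.95 and 5.89 in GMT cells and 5.99, 5.84 and 5.79 in NGMT cells, against 10.88, 10.89 and 10.95 in 0F cells. The difference of Plin4 was -2.33 ± 0.10 in GMT and -2.22 ± 0.09 in NGMT.

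All 5 genes of transcriptional control fell, but Thrsp and Mlxipl entered the tests through 0F, so their falls add no support. Pparg had 8.62 and 8.57 in GMT cells and 8.67, 8.46 and 8.63 in NGMT cells, against 11.86, 11.72 and 11.72 in 0F cells, and its difference in GMT was -3.17 ± 0.08. Cebpa had 6.85 and 7.06 in GMT cells and 7.12, 7.11 and 7.07 in NGMT cells, against 9.38, 9.67 and 9.66 in 0F cells. Unlike Adipoq, Pparg stayed above the array median on every GMT and NGMT array. Thrsp, the nuclear protein Spot 14 of lipogenic tissues, had 5.54 and 5.53 in GMT cells and 5.54, 5.54 and 5.53 in NGMT cells, against 10.40, 10.30 and 10.52 in 0F cells. Srebf1, which encodes SREBP1, differed from 0F by -1.51 ± 0.06 in GMT and by -1.55 ± 0.05 in NGMT, and Mlxipl, which encodes ChREBP, by -1.03 ± 0.06 and -1.14 ± 0.05.

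The 7 genes of fatty acid synthesis had the smallest falls as a group, with a median of -1.63 in GMT and -1.64 in NGMT. Fasn, the fatty acid synthase, had 9.70 and 9.74 in GMT cells and 9.73, 9.79 and 9.67 in NGMT cells, against 12.43, 12.45 and 12.60 in 0F cells. Acly, the ATP citrate lyase, had 9.48 and 9.64 in GMT cells and 9.66, 9.69 and 9.51 in NGMT cells, against 11.18, 11.21 and 11.38 in 0F cells. These enzymes kept signals high above the array median in cells where Adipoq and Retn did not. The differences between GMT and 0F were -2.09 for Acaca, the cytosolic acetyl-CoA carboxylase, -1.63 for the desaturase Scd1, -1.55 for malic enzyme Me1 and -1.32 for the elongase Elovl6. Acacb, the mitochondrial acetyl-CoA carboxylase that restrains fatty acid oxidation, had 7.34 and 7.44 in GMT cells and 7.21, 7.18 and 7.18 in NGMT cells, against 7.56, 7.58 and 7.73 in 0F cells. Its difference was -0.23 ± 0.08 in GMT (adjusted p = 0.0125) and -0.43 ± 0.07 in NGMT, and its call in GMT was lost without 0F replicate 3 or without GMT replicate 1.

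**Figure D2:**
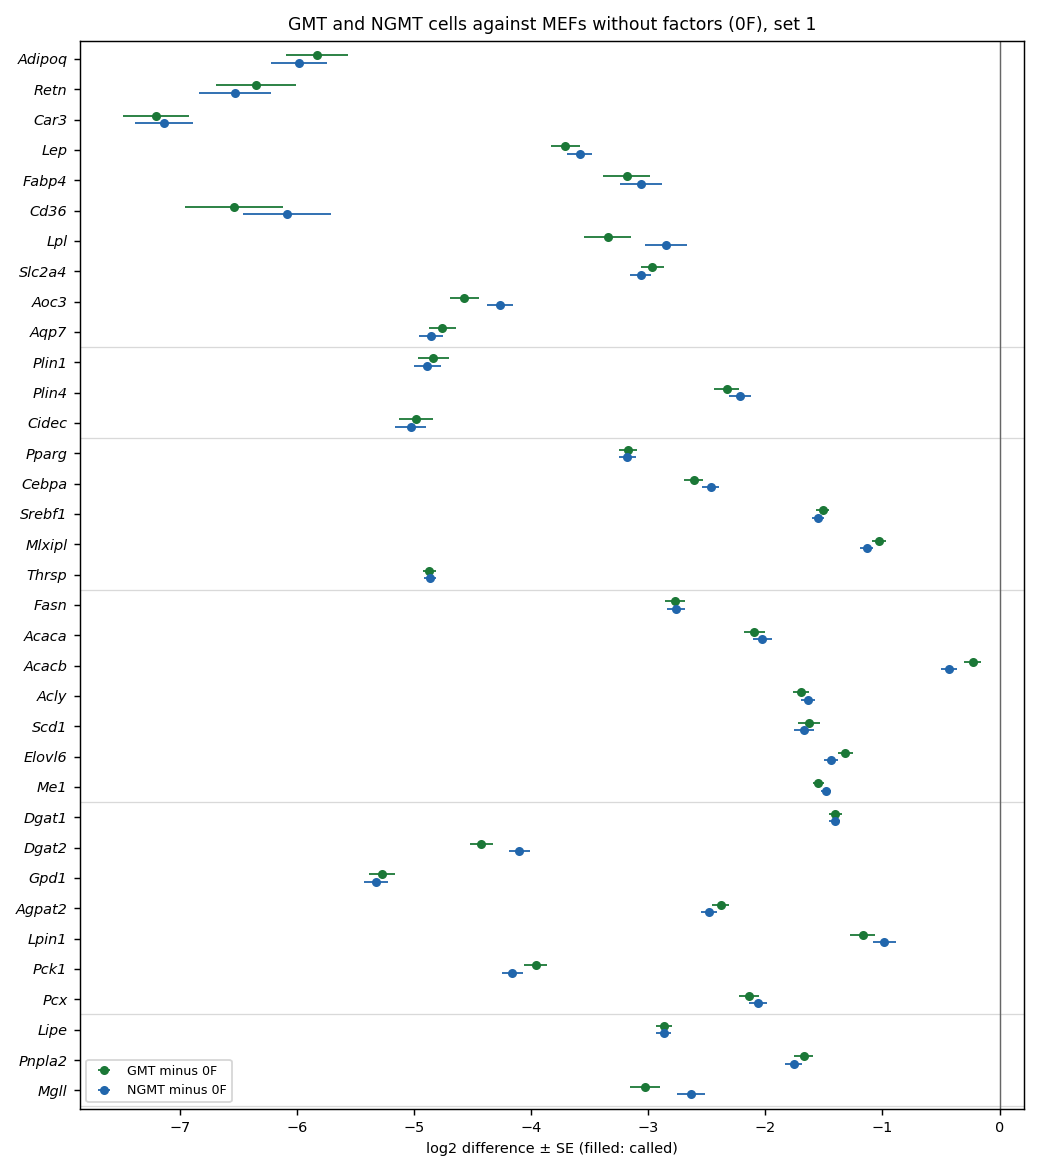
Log2 difference from 0F cells (x axis, with SE) of the 35 tested genes, by role from top to bottom, for GMT and NGMT cells in set 1. All points are left of 0 and called, from Car3 at -7.21 to Acacb at -0.23 in GMT.

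Among the 7 genes of triglyceride synthesis and its glycerol supply, Gpd1, Dgat2 and Pck1 fell furthest, though Pck1 entered the tests through 0F. Gpd1, the glycerol 3-phosphate dehydrogenase, had 6.80 and 6.74 in GMT cells and 6.49, 6.77 and 6.91 in NGMT cells, against 11.93, 12.07 and 12.14 in 0F cells. Dgat2, which adds the last fatty acid of triglyceride, had 7.75 and 8.12 in GMT cells and 8.23, 8.28 and 8.28 in NGMT cells, against 12.34, 12.34 and 12.41 in 0F cells. Its unrelated counterpart Dgat1, which catalyses the same step, had a difference of -1.40 ± 0.05 in GMT, beside -4.43 ± 0.10 for Dgat2. The differences were -3.96 ± 0.10 for Pck1, the glyceroneogenic kinase, and -2.38, -2.14 and -1.17 for Agpat2, Pcx and Lpin1. Each of the 3 lipases fell too. The differences between GMT and 0F were -3.03 ± 0.13 for Mgll, the monoglyceride lipase, -2.86 ± 0.07 for Lipe, the hormone-sensitive lipase, and -1.67 ± 0.08 for Pnpla2, the first lipase of the pathway.

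Genes around the list were less uniform in the same comparison. Of all genes tested, 22.3% were called lower in GMT than in 0F, and 57.8% had a difference above 0, called or not. The share called higher is not given, so the counts of higher genes below have no such share beside them. Of 39 tested genes in a list of other adipocyte and lipid droplet genes, 23 were lower and 12 higher in GMT than in 0F, and the largest falls were those of Orm1 (-4.81 ± 0.24), Pde3b (-4.62 ± 0.18) and Apoc1 (-3.64 ± 0.14). Other fatty acid synthesis genes were lower for 12 and higher for 5 of 19, with Acss2, which activates acetate, at -3.07 ± 0.09 and the elongase Elovl7 at 1.75 ± 0.13. Cholesterol synthesis genes, which share SREBP control with lipogenesis, were lower for 9 and higher for 6 of 21, led by Insig1 at -2.20 ± 0.08. For these 3 lists the median difference lay between -0.30 and -0.12, far nearer to that of all genes than the median of the 35. All lists were chosen with earlier results of these data known, so the contrast describes the lists as chosen. Of 7 tested brown fat genes 4 were lower and 0 higher, with Cox8b at -4.37 ± 0.28. Of 13 genes of preadipocytes or of restraint of adipogenesis 10 were lower and 3 higher, with Dlk1, the preadipocyte protein Pref-1, at -3.60 ± 0.20 and Cd24a at 3.70 ± 0.16. That list contains Pparg.

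Macrophage markers moved with these falls. Of 14 tested markers 12 were lower and 2, Cd14 and Cd53, higher in GMT than in 0F, and the counts were the same in NGMT. The lower ones include Adgre1, above the array median on the 0F arrays only, and C1qb and Tyrobp, above it otherwise on HNGMT arrays alone. These markers entered the tests through 0F, where they are high, so their falls add no support. The mean over the 17 markers with a probe set, as log2 signal minus the array median, was -0.53 to -0.42 in GMT and -0.58 to -0.48 in NGMT, against 1.20 to 1.77 in 0F. Lyz2, the lysozyme of macrophages, had 5.20 and 5.39 in GMT cells and 5.35, 5.26 and 5.30 in NGMT cells, against 11.86, 11.60 and 11.77 in 0F cells. The leukocyte antigen Ptprc lay below the array median on all arrays. The part of macrophages in the results was not tested. Of 6 tested endothelial markers 1 was higher and 1 lower in GMT.

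The rule of the list also asked how the same combination differs between array sets, and several adipocyte genes differed widely between set 2 and set 1 inside GMT and inside NGMT. For this step the 11 GMT and NGMT arrays were quantile normalized together, since the sets are scaled apart. Set 2 was higher for 17 and lower for 4 of the 35 genes in GMT, and higher for 18 and lower for 6 in NGMT. In GMT 27.2% of all genes were called higher and 32.1% lower in set 2, and in NGMT 28.8% and 32.8%, so most genes differed between the sets. Rises of at least 2-fold were called for 3 of the 35 genes in GMT, where 2.4% of all genes rose that far, and for 4 in NGMT, where 1.75% did. Whatever differed between the sets, in cells or in arrays, cannot be told apart.

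Car3 had as-deposited log2 signals of 9.78, 10.72 and 10.21 in GMT cells of set 2, against 6.03 and 5.74 in GMT cells of set 1. In NGMT cells it had 10.95, 10.23 and 10.41 in set 2, against 6.09, 5.89 and 5.88 in set 1. After normalization the difference was 4.22 ± 0.25 in GMT and 4.41 ± 0.22 in NGMT, far above any difference between GMT and NGMT arrays of a set. Adipoq had 7.02, 7.39 and 7.42 in GMT cells of set 2, against 5.50 and 5.41 in GMT cells of set 1, and its normalized difference was 1.68 ± 0.13 in GMT and 1.84 ± 0.11 in NGMT. Cd36 was higher in set 2 by 1.26 ± 0.27 and 1.19 ± 0.24. The droplet genes moved the same way: Plin4 by 0.98 in GMT and 0.83 in NGMT, Plin1 by 0.76 and 1.03, and Cidec by 0.76 and 0.87. Pparg was higher by 0.48 ± 0.07 in GMT and by 0.59 ± 0.06 in NGMT. Retn, in contrast, was called in NGMT alone, at 0.67 ± 0.13, with 0.26 ± 0.14 in GMT, and the difference between these 2 values was not tested on normalized signals.

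The genes lower in set 2 in both combinations were Pnpla2, Agpat2, Lpl and Dgat1. Pnpla2 had 8.64, 8.58 and 8.53 in GMT cells of set 2, against 9.62 and 9.76 in GMT cells of set 1, and differed by -1.25 ± 0.07 in GMT and by -1.20 ± 0.06 in NGMT after normalization. Agpat2, the acyltransferase of phosphatidic acid synthesis, differed by -1.10 ± 0.05 and -0.96 ± 0.05, and Lpl by -0.65 ± 0.22 and -1.01 ± 0.20. Dgat1 differed by -0.31 and -0.27, and Dgat2 and Mgll were called lower in NGMT alone, at -0.36 and -0.72. Triglyceride synthesis genes were split, with Gpd1 higher by 0.41 in GMT and 0.58 in NGMT and Lpin1 by 0.52 and 0.32. Fatty acid synthesis genes moved less: Elovl6 by 0.43 and 0.50, Fasn by 0.19 and 0.17, and Acly and Scd1 were called in neither. Of the 13 preadipocyte genes 11 were higher and 0 lower in GMT, and 9 were higher and 1 lower in NGMT, led by Cd34 at 1.96 ± 0.12 and 1.51 ± 0.11. Other fatty acid synthesis genes were mostly lower, 10 of 19 in GMT and 11 in NGMT, with 2 and 3 higher.

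**Figure D3:**
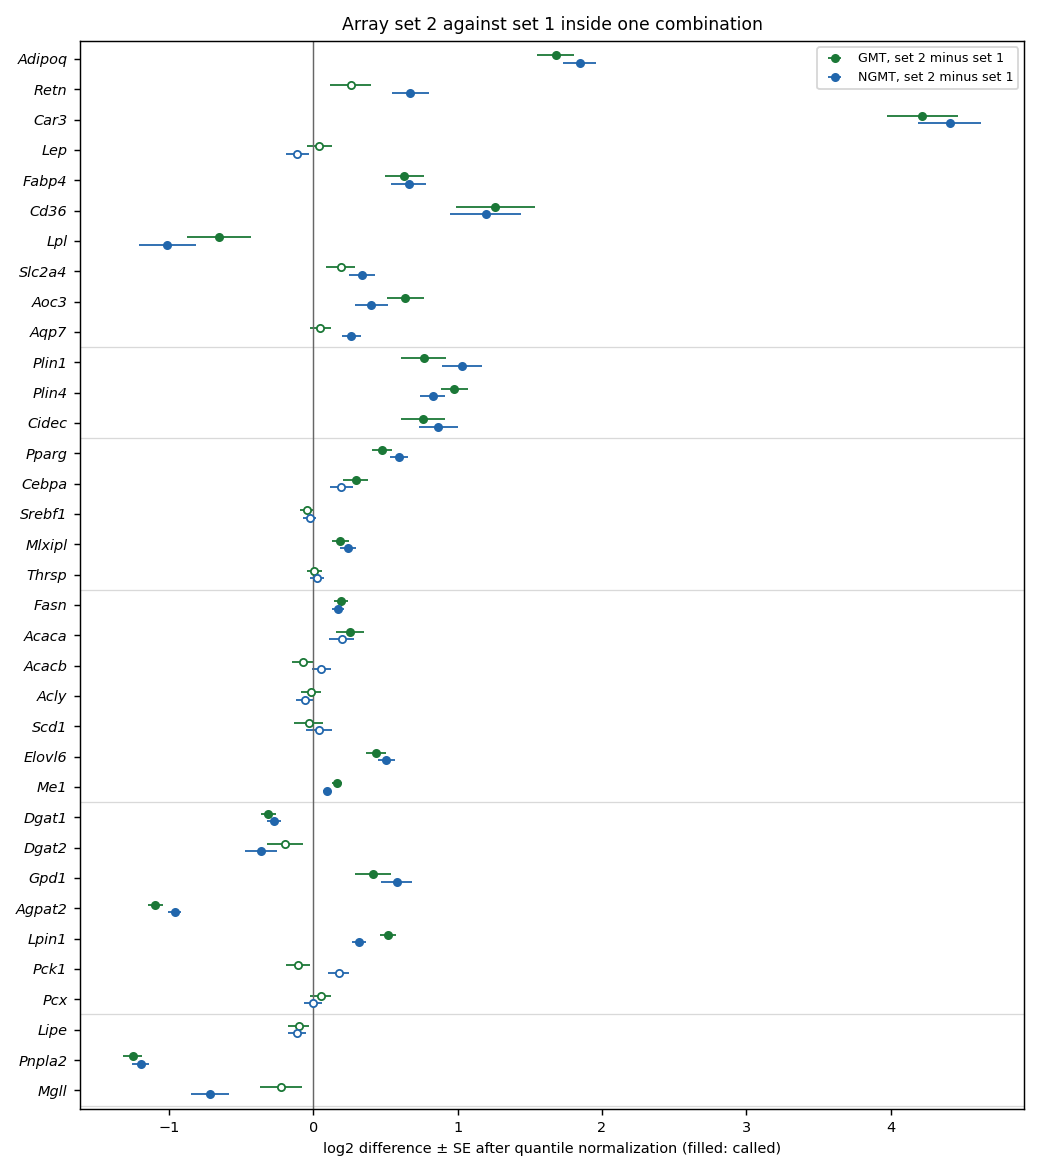
Log2 difference between set 2 and set 1 (x axis, with SE) of the 35 tested genes inside GMT and inside NGMT, after quantile normalization of the 11 arrays. Filled points are called. Car3 lies beyond 4 in both, and Pnpla2 and Agpat2 lie near or below -1.

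None of the 35 genes was called in either set when NKX2.5 was added to GMT, and 1 was called when set 1 was fitted alone. In set 1, NGMT against GMT gave 0 calls where 4.7% of all genes were called in either direction by limma, and 5 of the 35 had an unadjusted p under 0.05. Here and below, unadjusted p were counted for the list only. Such counts have no share of all genes beside them and are not read as a result. The smallest adjusted p was 0.0684, for Dgat2 at 0.32 ± 0.10. The largest differences were those of Lpl at 0.50 ± 0.20 (95% interval 0.09 to 0.91) and Cd36 at 0.45 ± 0.42 (-0.41 to 1.32). In set 2, 0 genes of the list were called, 0 had an unadjusted p under 0.05, and 0.0328% of all genes were called. There Cd36 had 7.91, 7.06 and 7.10 in NGMT cells, against 6.52, 7.38 and 6.94 in GMT cells, and the groups overlapped. Its difference of 0.41 had an interval of -0.37 to 1.18, wide enough to hold a 2-fold change. For Fasn the interval in set 2 was -0.15 to 0.16, and for Pparg -0.04 to 0.25. The effect of NKX2.5 was also compared between the sets by an interaction contrast, which gave 0 calls among the 35, with 2 at an unadjusted p under 0.05, and 0.639% of all genes called. Its largest values were those of Mgll at -0.50 ± 0.18 (adjusted p = 0.326) and Retn at 0.42 ± 0.46.

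Adding Hand2 to GMT raised most of the list. In HGMT cells 24 of the 35 genes were higher than in GMT cells of the same set and 0 were lower, where 11.2% of all genes were called higher and 12.7% lower. A rise of at least 2-fold was called for 5 of them, Car3, Cd36, Retn, Adipoq and Lpl, where 0.966% of all genes rose that far. For 26 of the 35 every HGMT array was above every GMT array, as for 18.1% of all genes. The median difference of the 35 was 0.34, and that of all genes was -0.01.

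All 10 genes of adipocyte identity and all 3 of the lipid droplet rose. Car3 had log2 signals of 12.42, 12.05 and 12.39 in HGMT cells, against 9.78, 10.72 and 10.21 in GMT cells, a rise of 2.05 ± 0.25 or 4.14-fold (adjusted p = 1.33e-06). Cd36 had 8.89, 8.18 and 8.66 in HGMT cells, against 6.52, 7.38 and 6.94 in GMT cells, a rise of 3.09-fold (adjusted p = 0.00226). Neither gene's groups overlapped, although the 3 GMT arrays differed by nearly 1 log2 unit for both. Retn had 7.96, 7.67 and 8.22 in HGMT cells, against 6.42, 6.64 and 6.33 in GMT cells, and rose by 1.49 ± 0.31. Adipoq had 8.60, 8.19 and 8.58 in HGMT cells, against 7.02, 7.39 and 7.42 in GMT cells, and rose by 1.18 ± 0.24. Lpl rose by 1.13 ± 0.18 and Lep by 0.64 ± 0.11, so hormone and uptake genes moved in the same direction. Lep lay below the array median on every HGMT and GMT array of set 2. So did Slc2a4, Aoc3, Thrsp and Pck1, which also count among the rises, and these low signals have no tested floor. Plin1 had 8.59, 8.35 and 8.49 in HGMT cells, against 7.38, 7.78 and 7.38 in GMT cells, and rose by 0.97 ± 0.12. Cidec and Plin4 rose by 0.85 and 0.72, and Fabp4 and Aqp7 by 0.72 and 0.63.

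Pparg had 9.91, 9.75 and 9.82 in HGMT cells, against 9.23, 9.25 and 9.22 in GMT cells, and rose by 0.59 ± 0.07 (adjusted p = 5.86e-07). Srebf1 rose by 0.26 ± 0.05, Thrsp by 0.25 ± 0.05 and Cebpa by 0.21 ± 0.07. Mlxipl, at 0.02 ± 0.05, was the transcription factor not called. The rises of Slc2a4 (0.25), Aoc3 (0.33) and Cebpa lost their calls when set 2 was fitted alone, with adjusted p of 0.13, 0.0847 and 0.0507, which left 21 calls.

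Fatty acid synthesis genes were mostly not called. Of the 7, Scd1 alone rose, with 12.64, 12.26 and 12.49 in HGMT cells, against 11.58, 11.88 and 11.88 in GMT cells, a rise of 0.68 ± 0.08. Fasn had 10.19, 10.09 and 10.12 in HGMT cells, against 10.01, 10.12 and 10.02 in GMT cells, and the groups overlapped. The 95% intervals were -0.08 to 0.23 for Fasn, -0.20 to 0.05 for Acly and -0.14 to 0.21 for Acaca, so a rise of the size seen for Plin1 lies outside each of them. In triglyceride synthesis Gpd1, Pcx, Dgat2 and Pck1 rose, Gpd1 by 0.87 ± 0.10 and the others by 0.32 to 0.43. Dgat1 (-0.05), Agpat2 (0.12) and Lpin1 (0.04) were not called. The lipase genes Mgll and Lipe rose by 0.57 and 0.34, and Pnpla2, at 0.18 ± 0.07, was not called (adjusted p = 0.0833).

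**Figure D4:**
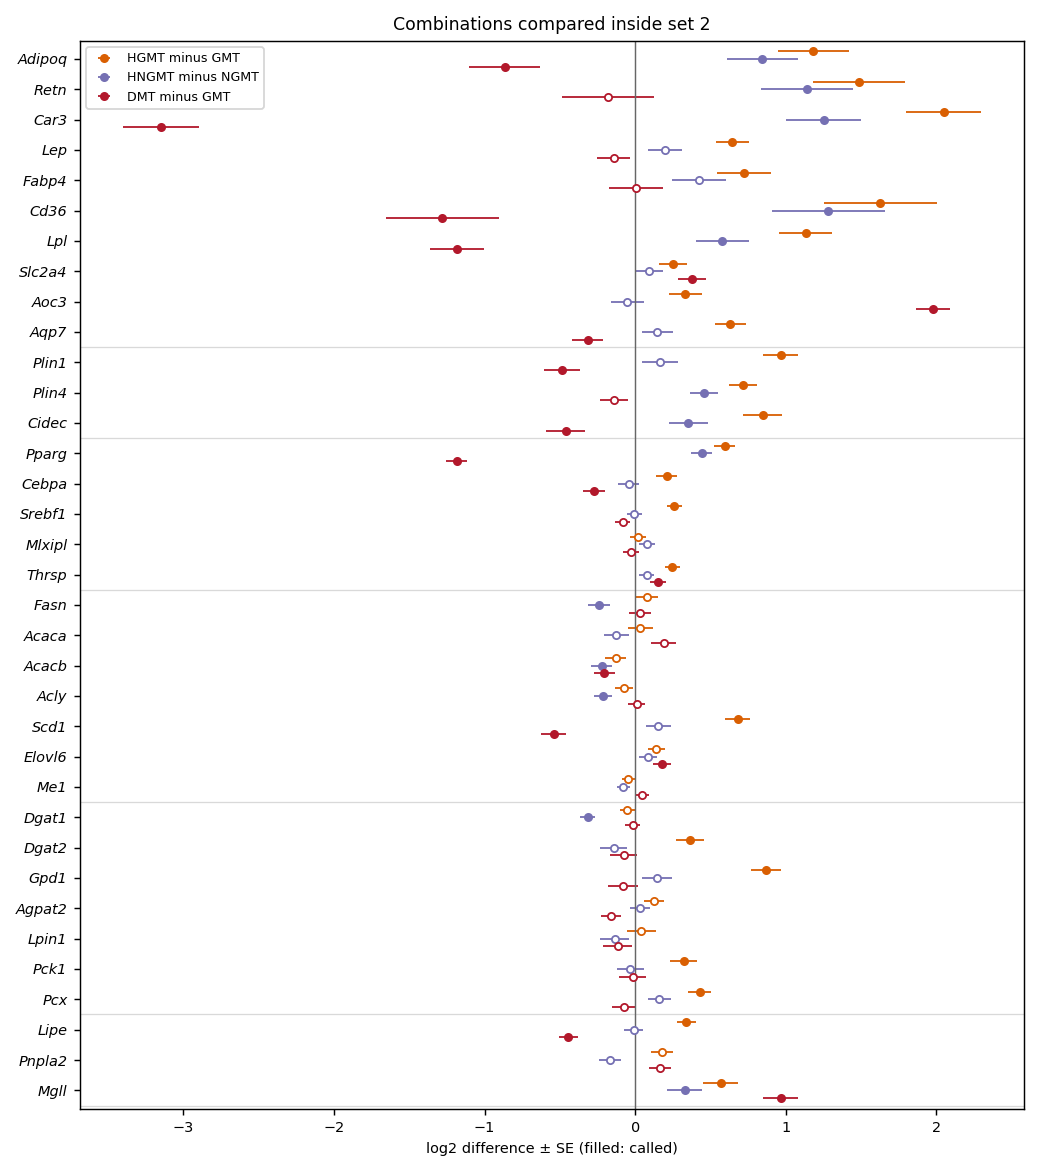
Log2 difference (x axis, with SE) of the 35 tested genes inside set 2 for HGMT against GMT, HNGMT against NGMT and DMT against GMT. Filled points are called. Adipocyte identity genes at the top lie right of 0 for HGMT, while Car3 lies at -3.15 and Aoc3 at 1.98 for DMT.

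Outside the 35 genes the same comparison was mixed. Of 39 other adipocyte genes 7 were higher and 8 lower in HGMT than in GMT, with Pde3b at 1.89 ± 0.16, Orm1 at 1.00 ± 0.21 and Rbp4 at 0.83 ± 0.25. Other fatty acid synthesis genes were higher for 6 and lower for 4 of 19, cholesterol synthesis genes were higher for 3 and lower for 2 of 21, and of 7 brown fat genes 0 were called. Preadipocyte genes were higher for 4 and lower for 2 of 13, with Dlk1 at 1.10 ± 0.18 and Cd24a at -1.45 ± 0.14. Macrophage markers were not raised here: 0 of 14 were higher and 2 lower, and their mean over 17 markers was -0.86 to -0.77 in HGMT, against -0.78 to -0.70 in GMT. Of 6 endothelial markers, Cdh5 (1.31 ± 0.07) and Tek (1.03 ± 0.09) rose and Erg fell by 0.91 ± 0.16, and the part of endothelial cells was not tested. Tnnt2 differed by 0.01 ± 0.08.

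Hand2 was also added to NGMT. In HNGMT cells 9 of the 35 were higher and 4 lower than in NGMT cells of set 2, where 7.67% of all genes were called higher and 20.9% lower. With the arrays of set 2 alone, the 13 calls became 6. The rises of at least 2-fold were those of Cd36, Car3 and Retn, and 0.762% of all genes rose that far.

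Car3 had 12.30, 11.70 and 11.35 in HNGMT cells, against 10.95, 10.23 and 10.41 in NGMT cells, and rose by 1.25 ± 0.25 with no overlap. Pparg had 9.88, 9.82 and 9.64 in HNGMT cells, against 9.38, 9.33 and 9.29 in NGMT cells, and rose by 0.44 ± 0.07 (adjusted p = 4.82e-05). Plin4 rose by 0.46 ± 0.09, Lpl by 0.58 ± 0.18, Cidec by 0.35 ± 0.13 and Mgll by 0.33 ± 0.12. Without HNGMT replicate 1, Cidec was at 0.23 (adjusted p = 0.23) and Lpl at 0.46 (adjusted p = 0.0835), and with set 2 alone the adjusted p were 0.151 for Cidec and 0.112 for Mgll. HNGMT replicate 1 stood apart for several fat cell genes. Retn had 9.17, 7.36 and 7.00 in HNGMT cells, against 7.02, 6.63 and 6.46 in NGMT cells, and the groups overlapped. Adipoq had 9.14, 7.77 and 7.52 in HNGMT cells, against 7.54, 7.18 and 7.18 in NGMT cells, and Cd36 had 9.89, 8.76 and 7.27, against 7.91, 7.06 and 7.10. Without that replicate the difference was 0.47 for Retn, 0.34 for Adipoq and 0.66 for Cd36, in place of 1.14, 0.84 and 1.28, and Cd36 was no longer called (adjusted p = 0.117). With set 2 alone Retn, Adipoq and Cd36 were not called either, at adjusted p of 0.0556, 0.0644 and 0.0731.

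Of the 7 fatty acid synthesis genes 3 were lower, Fasn, Acly and Acacb, and 4 were not called, with Scd1 at 0.15 ± 0.08. Fasn had 9.53, 9.95 and 9.97 in HNGMT cells, against 10.05, 10.07 and 10.05 in NGMT cells, and fell by 0.24 ± 0.07. Acly and Acacb were each at -0.22, and Dgat1, of triglyceride synthesis, fell by 0.32 ± 0.05. The lowest Fasn signal was that of replicate 1, without which the difference was -0.10 (adjusted p = 0.129), and Acacb too was not called without it (adjusted p = 0.118). With set 2 alone the adjusted p were 0.0785 for Fasn and 0.0709 for Acacb. The calls that held under every alternative fit were those of Car3, Pparg and Dgat1.

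Macrophage markers differed among the HNGMT arrays. Lyz2 had 11.03, 10.50 and 7.66 in HNGMT cells, against 8.59, 6.29 and 6.70 in NGMT cells, and the mean over 17 markers was 0.24, -0.09 and -0.68 in HNGMT, against -0.46, -0.78 and -0.68 in NGMT. Of 14 tested markers 7 were higher in HNGMT than in NGMT and 0 lower. Replicate 1, the array highest for Retn, Adipoq and Cd36, was also the highest for Lyz2, and replicate 2, high for Lyz2 as well, was near replicate 3 for Retn and Adipoq but above it for Cd36, at 8.76 beside 7.27. The part of macrophages in these values was not tested. Other adipocyte genes were higher for 2 and lower for 12 of 39, and Pde3b, as in HGMT, was higher, by 1.70 ± 0.16.

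HNGMT and HGMT cells were compared directly as well. Of the 35 genes 0 were higher and 7 lower in HNGMT, where 0.123% of all genes were called higher and 0.369% lower. These were Gpd1 (-0.61 ± 0.10), Plin1 (-0.58 ± 0.12), Scd1 (-0.48 ± 0.08), Lipe (-0.38 ± 0.06), Pnpla2 (-0.36 ± 0.07), Srebf1 (-0.28 ± 0.05) and Dgat1 (-0.23 ± 0.05). Gpd1 had 7.67, 7.64 and 7.50 in HNGMT cells, against 8.39, 7.94 and 8.30 in HGMT cells. For 17 of the 35 genes every HNGMT array was below every HGMT array, as for 13.7% of all genes. An unadjusted p under 0.05 was found for 21, and the share of all genes at that threshold was not counted. With set 2 alone, without set 3, or without HGMT replicate 1, the count was 0, and without HNGMT replicate 3 it was 16. Macrophage markers were higher in HNGMT than in HGMT for 3 of 14 and lower for 0, with a median difference of 0.58, and Lyz2 was at 3.25 ± 0.55. The part of macrophages in this comparison was not tested. Pparg, with -0.05 ± 0.07, was nearly level between the combinations (95% interval -0.19 to 0.09).

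The interaction of Hand2 with NKX2.5, which is the Hand2 difference with NKX2.5 minus that without it, was below 0 for 34 of the 35 genes, as for most of the 12211 genes, of which 36.3% were above 0. Its median was -0.30 for the list and -0.04 for all genes. No gene of the list was called by limma, and 0% of all genes were. An unadjusted p under 0.05 was found for 19 of the 35, and the share of all genes at that threshold was not counted. The smallest adjusted p was 0.0983, for Gpd1 at -0.73 ± 0.14, and Car3 and Plin1 were each at -0.80. The smaller number of rises beside NKX2.5 is therefore not shown as a difference for any single gene.

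Replacing GATA4 by MYOCD moved single genes in opposite directions. In DMT cells 5 of the 35 genes were higher and 12 lower than in GMT cells of set 2, where 9.11% of all genes were called higher and 8.15% lower, and with set 2 alone 10 of the 17 calls were made. GMT replicates 3 to 5 also serve as the base of the HGMT comparison, so the 2 are not independent. Falls of at least 2-fold were called for Car3, Cd36, Lpl and Pparg and a rise of at least 2-fold for Aoc3, where 0.958% and 0.876% of all genes moved that far.

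Car3 had 7.69, 6.90 and 6.67 in DMT cells, against 9.78, 10.72 and 10.21 in GMT cells, a fall of 3.15 ± 0.25 or 8.88-fold (adjusted p = 1.17e-09). Pparg had 8.21, 7.96 and 7.96 in DMT cells, against 9.23, 9.25 and 9.22 in GMT cells, and fell by 1.19 ± 0.07 or 2.28-fold (adjusted p = 3.53e-12). Lpl had 8.20, 7.85 and 7.56 in DMT cells, against 8.60, 9.30 and 9.24 in GMT cells, and fell by 1.18 ± 0.18. All 3 genes were separated from GMT on every array. Adipoq had 6.43, 6.42 and 6.38 in DMT cells, against 7.02, 7.39 and 7.42 in GMT cells, and Cd36 had 5.73, 5.75 and 5.52, against 6.52, 7.38 and 6.94. Their differences were -0.87 and -1.28, and with set 2 alone their adjusted p were 0.0765 and 0.0994 although the arrays did not overlap. The other falls were those of Scd1 (-0.54 ± 0.08), Plin1 (-0.48), Cidec (-0.46), Lipe (-0.44), Aqp7 (-0.32), Cebpa (-0.27) and Acacb (-0.20). With set 2 alone Cidec, Aqp7 and Acacb were not called, at adjusted p of 0.0873, 0.0826 and 0.135. Aqp7 lay below the array median on every DMT and GMT array of set 2.

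Aoc3, which encodes an amine oxidase of fat cells and of smooth muscle, had 8.15, 8.45 and 8.63 in DMT cells, against 6.23, 6.44 and 6.63 in GMT cells. It rose by 1.98 ± 0.11 or 3.94-fold (adjusted p = 1.89e-12), the largest rise of the list in any comparison of combinations after Car3 in HGMT. Mgll had 8.45, 8.66 and 8.70 in DMT cells, against 7.30, 7.65 and 7.97 in GMT cells, and rose by 0.97 ± 0.12. Slc2a4, the insulin-regulated glucose transporter of fat and muscle, rose by 0.38 ± 0.09. All 3 have known expression outside fat. The genes that fell were not compared with them in this respect, and its part in these values was not tested. The rises of Elovl6 (0.18) and Thrsp (0.15) were lost when set 2 was fitted alone. Retn, at -0.18 ± 0.31, and Fasn, at 0.03 ± 0.07, were not called, and 0 of the 7 triglyceride synthesis genes were.

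Around the list, other adipocyte genes were higher for 7 and lower for 7 of 39 in DMT, with Rbp4 at 1.70 ± 0.25, Fabp5 at 1.16 ± 0.16 and Vldlr at 0.80 ± 0.09. Preadipocyte genes were lower for 7 and higher for 1 of 13, with Cd34 at -1.12 ± 0.10 and Dlk1 at -0.60 ± 0.18. Of other fatty acid synthesis genes 4 of 19 were higher and 2 lower, and Hacd1, a muscle dehydratase of fatty acid elongation, rose by 1.20 ± 0.07. Tnnt2 was lower in DMT, at -0.32 ± 0.08, and macrophage markers were lower for 2 and higher for 0 of 14.

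In set 3, DMNT was set against the single DMT array of that set, and 0 of the 35 genes were called by limma, with 0.0655% of all genes called and 1 gene of the list at an unadjusted p under 0.05. That gene was Elovl6, with 10.30, 10.25, 10.32 and 10.33 in DMNT cells, against 9.98 in the DMT cells (0.32 ± 0.08, adjusted p = 0.263). Aoc3 had 9.32, 9.40, 9.31 and 9.49 in DMNT cells, against 9.45 in the DMT cells. Car3 had 8.56, 7.97, 8.30 and 8.39 in DMNT cells, against 8.08 in the DMT cells, and its interval of -0.48 to 0.94 leaves room for changes in both directions. The lone DMT array was taken to vary like the other groups.

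HGMT, HNGMT, DMT and DMNT share no array set with 0F and were not tested against it. After quantile normalization of all 28 arrays, Car3 averaged 12.33 ± 0.18 in HGMT (SD, n = 3), 11.80 ± 0.39 in HNGMT (n = 3), 7.72 ± 0.27 in DMNT (n = 4) and 7.18 ± 0.52 in DMT of set 2 (n = 3), against 13.36 ± 0.03 in 0F (n = 3). Adipoq averaged 8.50 ± 0.21 in HGMT, 8.21 ± 0.88 in HNGMT, 5.28 ± 0.02 in DMNT and 6.52 ± 0.04 in DMT of set 2, against 11.52 ± 0.10 in 0F. The order of the Car3 means places HGMT nearest to 0F, and HGMT and HNGMT differ by less than the sum of their SDs. On the same scale Car3 averaged 6.14 in GMT of set 1 and 10.27 in GMT of set 2. In NGMT it averaged 6.23 in set 1 and 10.55 in set 2. A large shift between sets thus remained inside a combination, so nearness to 0F cannot be told apart from set. Pparg averaged 9.88 ± 0.06 in HGMT and 9.83 ± 0.11 in HNGMT, which do not differ beyond their spread, and 7.46 ± 0.01 in DMNT and 8.11 ± 0.14 in DMT of set 2, against 12.01 ± 0.08 in 0F.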

How the data were processed

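The authors deposited log2 signals of 35556 probe sets on 28 single-channel arrays, and the values run from 3.757941 to 14.46866. The submitters' processing notes list MAS5 without a version or role. No column was set aside (0). The annotation gives 21789 probe sets 1 symbol, 1621 several and 12146 none. All symbols of the list's probe sets were unchanged when matched through Entrez IDs to RefSeq (GRCm38.p6). Acaca and Me1 have 2 probe sets each. Arrays have no read depth, and their number, 1 to 4 per group and set, limits the precision. The median SE over genes was 0.0697 for comparisons of 3 arrays with 3.

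Array sets were found from the distance between sorted array values (at most 0.0486 inside a set, at least 0.135 between sets). The fit used limma 3.58.1 in R 4.3.3 (lmFit and eBayes with trend) with 1 mean for each of 10 combinations of group and set and 18 residual degrees of freedom. No 2 arrays were identical. The members and the other lists were chosen with earlier results of these data known. Named are all members, above all those called and the 2 uncalled ones of largest difference in a comparison, and from the other lists up to 3 called genes of largest difference, besides Tnnt2 and defining markers. The fit was tested on simulated data over 12211 genes: at a change of 0.5 on the log2 scale it recovered 75% of changed genes for GMT against 0F, 96% for HGMT against GMT, 88% for HNGMT against NGMT, 91% for HNGMT against HGMT, 97% for DMT against GMT and 77% for DMNT against DMT. The simulation gave each gene 1 spread for all arrays, although HNGMT arrays varied more (median SD 0.132). Its percentages for the 2 HNGMT comparisons may therefore be too high. Alternatives were additive group and set terms, quantile normalization, other filters on dim genes, only a set's arrays, the mean of a gene's probe sets, replicate numbers as a block, and each array left out.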

Additional observations from a re-analysis of the deposited data

Results flagged for a closer look

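In DMNT, the group with 4 arrays in a set, 11 of the 35 genes had 1 array farther from the others than Dixon's limit allows, where chance flags about 1 in 20 groups. The gaps are small, and in set 3 most of these genes have equal values on the other arrays. Replicate 2 differed for Pparg (8.09418, the others at 8.079525), Cebpa (8.218705, the others at 8.154321), Acly (10.33126, the others at 10.34063) and Gpd1 (7.801409, the others at 7.775712). Replicate 3 differed for Cd36 (5.852091, the others at 5.844644), Dgat1 (9.929112, the others at 9.851343 to 9.864076) and Lpin1 (10.36714, the others at 10.32046). Replicate 1 differed for Cidec (7.572314, the others at 7.581821), Acacb (8.025967, the others at 8.071932) and Mlxipl (7.572566, the others at 7.602765). Replicate 4 differed for Lipe (8.283235, the others at 8.324614 to 8.328221).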

How the results depend on the processing

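Among the alternatives run, 0 values changed direction between called results, and for single genes 2358 values kept their side of the threshold, 199 lost and 21 gained a call. Members called numbered 30 to 36 for GMT and for NGMT against 0F and 20 to 24 for HGMT against GMT. For HNGMT against NGMT (13 called) the count was 6 with set 2 alone, 4 and 6 with a replicate block by title and by sample-name number, and 8 to 15 with 1 array left out, 8 without NGMT replicate 6. For HNGMT against HGMT (7 called) it was 0 with set 2 alone, 1 and 0 with the replicate blocks, 0 without the arrays of set 3, an alternative chosen after seeing the data, and 0 to 16 with 1 array left out: 0 without HGMT replicate 1, 1 without HGMT replicate 3, 4 without HGMT replicate 2, 14 without HNGMT replicate 2 and 16 without HNGMT replicate 3. For DMT against GMT (17 called) it was 10 with set 2 alone, 12 and 11 with the blocks, and 11 to 16 with 1 array left out, 11 without GMT replicate 4. For NGMT against GMT in set 1 (0 called) it was 1 with set 1 alone, 1 with the replicate block and 0 to 1 with 1 array left out (1 without GMT replicate 2 or NGMT replicate 3). For DMNT against DMT (0 called) it was 5 with set 3 alone. Both interactions (0 called) gave 0 to 1 with 1 array left out. Beside set 3 alone, the cause was not tested. Whether equal numbers mark paired samples could not be decided. Same-numbered arrays correlated above 0.1 in their deviations for 3 of 7 pairs in set 1 and 4 of 14 in set 2 by title, and 9 of 30 by name. The correlations ran from -0.138 to 0.408 in set 1, and from -0.257 to 0.300 by title and to 0.367 by name in set 2. Arrays with different numbers were not correlated, so these values have no reference. The number of arrays limits what can be called, most of all for DMNT against DMT.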
